A study of Mus musculus with 6 samples.

Results

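Potassium channel genes were examined in RNA-seq counts from mouse palatal shelves of embryonic stage E14.25. The set was every gene listed under a symbol that begins with Kcn, goes on with lower-case letters and ends in a number, which gave 92 of the 23366 genes. This leaves out the antisense transcript Kcnq1ot1 and also Kcnrg and Kcne1l. The libraries were 3 from embryos labelled WT (replicates 2, 3 and 4) and 3 from embryos of genotype Kmt2dfl/fl Wnt1-Cre (replicates 1, 2 and 3), called knockout here. Kmt2d encodes a histone methyltransferase, and the human gene is mutated in Kabuki syndrome. The Wnt1-Cre transgene acts in the neural crest lineage, so epithelium, endothelium and blood cells of the shelf keep the floxed gene intact. The labels do not say whether the wild type embryos carried the floxed allele or the Cre, and give each sample as the paired shelves of embryos without stating how many were pooled.

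Potassium channels let potassium ions leave or enter the cell and so set its resting voltage and end its electrical signals. Inward rectifiers (Kcnj) and tandem-pore leak channels (Kcnk) hold the resting potential. The voltage-gated alpha subunits are Kcna to Kcnd, Kcnf to Kcnh, Kcnq, Kcns and Kcnv. Of these, Kcnf, Kcng, Kcns and Kcnv are silent subunits that alter other channels, and the rest form channels that open on depolarisation. Kcnab, Kcne and Kcnip proteins are auxiliary subunits of voltage-gated channels. Kcnma, Kcnn, Kcnt and Kcnu channels open with calcium, sodium or pH, and Kcnmb proteins are partners of Kcnma1. Kcnj2 encodes a strong inward rectifier, and its loss is linked to cleft palate: mutations of the human gene cause Andersen-Tawil syndrome, in which craniofacial defects occur, and Kcnj2-deficient mice have a cleft of the secondary palate.

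Kcnj2 was the most abundant of these genes and the only one past the threshold between the groups, so its promoter is shown. The sequence below is the 250 bases before the transcription start in RefSeq, on the plus strand of build GRCm38.p6 at chr11:111065914-111066163, a later build than that of the counts. Capitals mark matches, on either strand, to GGGCGG (the GC box), CACGTG (an E-box) and CCAAT (the CCAAT box, here on the minus strand).

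Kcnj2 promoter: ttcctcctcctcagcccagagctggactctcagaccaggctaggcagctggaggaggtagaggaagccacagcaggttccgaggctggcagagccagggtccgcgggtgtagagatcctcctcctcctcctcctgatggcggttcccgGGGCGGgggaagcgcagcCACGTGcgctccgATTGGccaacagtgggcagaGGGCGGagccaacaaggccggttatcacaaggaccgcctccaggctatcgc

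The window held 2 GC boxes, 1 E-box and 1 CCAAT box, none overlapping another, and no TATAAA. Among 32851 windows of the same length in the RefSeq promoter table, 32.7% held a GC box, 6.02% the E-box, 33.8% a CCAAT box and 12.4% TATAAA. GC content was 65.6%, with 14 CpG dinucleotides. The ratio of observed to expected CpG was 0.52, under the minimum of 0.6 set here for a CpG-rich window. Such matches describe letters and not bound factors. In the RefSeq gene order the protein-coding gene next to Kcnj2 on one side is Kcnj16, another inward rectifier.

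Gene counts per library ranged from 20785074 to 24916079 read pairs in the wild type and from 12721979 to 20203309 in the knockout. Knockout replicate 2 stood apart, where 47.5% of listed pairs fell outside genes (12.3% to 18.1% in the other 5), so results are also given without it. Rn45s, a ribosomal RNA precursor, took 35.1% and 30.0% of gene counts in knockout replicates 1 and 3 and 16.2% to 20.7% in the other 4 libraries. Kcnj2 rose also when Rn45s and Lars2 were removed (log2 fold change 0.86, edgeR adjusted p = 0.042). Skeletal muscle markers (10 genes) summed to 1233 CPM (counts scaled to a common library size) in knockout replicate 2 against 141 to 372 CPM in the others. Most of that sum was Myh3 (804 CPM) and Myh8 (223 CPM). Of the 10 genes, Myog alone was not highest there, at 27.5 CPM against 31.4 CPM in wild type replicate 2. Ckm was near the floor, with 5 counts in knockout replicate 2. Kmt2d, listed under its older symbol Mll2, stood at 197, 211 and 171 CPM in the wild type (replicates 2, 3 and 4, the order used throughout) and at 254, 539 and 193 CPM in the knockout (replicates 1, 2 and 3). A count over the whole gene does not check the labels, which do not say which exons are deleted. All 8 palate mesenchyme markers were detected, at a summed 1439 to 1481 CPM in the wild type and 1631 to 1865 CPM in the knockout. Prrx1 was the largest part, at a mean of 591 CPM in the wild type and 801 CPM in the knockout. Among the 8 log2 fold changes, 4 were positive and 4 negative, with a median of -0.025. Summed epithelial, endothelial and macrophage markers were lower in each knockout library than in each wild type library, at 290 to 519 against 540 to 675 CPM for the 8 epithelial genes, 217 to 253 against 281 to 310 CPM for the 8 endothelial genes and 34.3 to 44.8 against 62.6 to 68.9 CPM for the 8 macrophage genes. None of these 24 genes passed the threshold used below, beside 0.534% of all genes. Without knockout replicate 2, 2 epithelial and 1 macrophage gene fell, beside 1.57% of all genes. Summed markers of pericytes and smooth muscle, and of osteoblasts, were also lower in each knockout library, with values given under the processing. Of the 7 pericyte and smooth muscle genes tested, 1 log2 fold change was positive and 6 were negative. The 6 osteoblast genes tested were split, with 3 positive (Sp7, Runx2 and Ibsp) and 3 negative. Without knockout replicate 2, Sp7 (-0.69) and Ibsp (-5.14) were negative and Runx2 (0.36) stayed positive. In bulk samples, fewer cells of a type and less RNA per cell cannot be told apart.

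In the wild type, Kcnj2 and Kcnk1 led the set when levels were divided by exon length. Kcnj2 stood at 6.14, 7.69 and 7.21 CPM per kb of exon in replicates 2, 3 and 4 (7.01 ± 0.793, SD, n = 3). Kcnk1, a tandem-pore leak channel, stood at 5.29, 6.08 and 6.93 CPM per kb (6.10 ± 0.824, SD, n = 3), which overlapped Kcnj2. Both lay above the third gene, Kcna6, a voltage-gated subunit with 4.24, 3.17 and 3.27 CPM per kb. Kcna6 in turn overlapped Kcnmb4, a partner of Kcnma1, at 2.99 ± 0.212 CPM per kb (SD, n = 3).

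The next genes in order were auxiliary subunits and leak channels as much as voltage-gated alpha subunits. Kcne3 stood at 2.63 ± 0.272, Kcnip3 at 2.48 ± 0.093, Kcna5 at 2.28 ± 1.01, Kcne4 at 2.07 ± 0.0334, Kcnk2 at 1.97 ± 0.0255, Kcnab2 at 1.88 ± 0.258, Kcnk6 at 1.62 ± 0.223 and Kcns3 at 1.59 ± 0.482 CPM per kb (SD, n = 3 each). Among the top 12, only Kcnk1 and Kcne4 had all 3 wild type libraries above those of the gene next below. Kcna5 varied most among these means, with 3.43 CPM per kb in replicate 3 against 1.53 and 1.88 in replicates 2 and 4. The same 12 genes led when the longest transcript was used as the length. Exons of Kcnk1, Kcna6, Kcnmb4, Kcne3 and Kcnk2 overlap those of genes without counts here on the other strand. Those of Kcnab2 overlap such a gene on the same strand. Reads of the overlapping genes may be included in these levels.

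**Figure D1:**
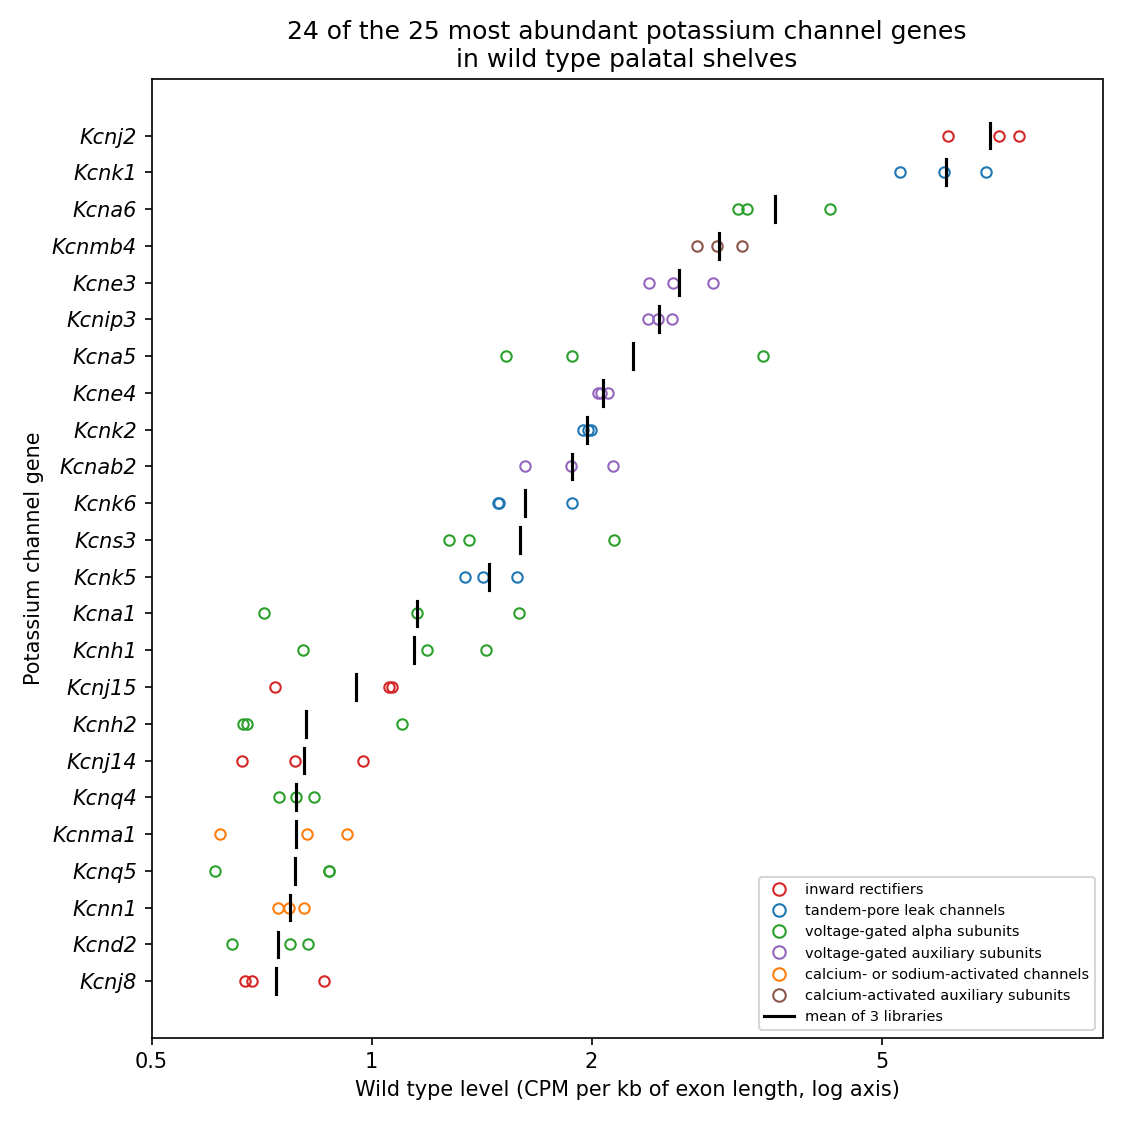
Wild type levels of 24 of the 25 most abundant potassium channel genes in CPM per kb of exon length on a log axis, with a circle for each of 3 libraries, a bar for the mean and colours for the class. Kcnj2 and Kcnk1 overlap each other and lie above Kcna6 and all genes below it.

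By class, the 40 voltage-gated alpha subunit genes summed to 19.9 ± 1.97 CPM per kb in the wild type (SD, n = 3). The 14 tandem-pore genes summed to 11.7 ± 0.498, the 15 inward rectifiers to 10.9 ± 1.06 and the 11 voltage-gated auxiliary genes to 10.4 ± 0.704 CPM per kb (SD, n = 3 each). The 8 calcium- or sodium-activated channels and the 4 Kcnmb genes were lower, at 2.69 ± 0.488 and 3.17 ± 0.248 CPM per kb (SD, n = 3 each). Expression was therefore spread over many genes: 44 of 92 reached a mean of 1 CPM in the wild type and 6 reached 10 CPM.

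At the low end, 32 genes had too few counts to be tested between the groups, with at most 28 counts in any library. Kcna10 had no count in any library, which allows at most 3 pairs of a library's total, and 14 of the 32 genes had 10 counts or fewer over all 6 libraries. The G protein-gated rectifiers Kcnj3, Kcnj5, Kcnj6 and Kcnj9 were all among the 32. So was Kcnq1, whose exons overlap those of Kcnq1ot1 on the other strand, so that counts of the pair may mix.

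Between knockout and wild type, Kcnj2 rose and none of the other 59 genes tested passed the threshold (edgeR quasi-likelihood test, adjusted p at or below 0.05 over 14233 genes). Over all genes, 0.534% passed, 0.0984% as higher and 0.436% as lower, against 1 and 0 of the 60 here. Of the 60, 5 were higher and 7 lower at an unadjusted p under 0.05, beside 7.51% and 6.69% of all genes. Without knockout replicate 2, Kcnj2 rose and 2 genes, Kcnma1 among them, fell among 62 genes tested, beside 2.12% of all genes (0.547% higher and 1.57% lower). Most of the remaining genes had lower values in the knockout without passing: 40 of 60 log2 fold changes were negative, beside 48.5% of all genes tested. The median was -0.23, beside 0.011 for all genes. The negative values include Kcnf1, Kcnh3 and Kcnv1, which entered the test through the wild type alone, as given below. Under a filter of at least 1 CPM in 3 libraries the lean was smaller, with 26 of 45 genes negative. The median was then -0.15, beside 0.012 for all genes. Leaving out knockout replicate 2 gave the lowest median, -0.39, with 44 of 62 genes negative beside 46.7% of all genes, and leaving out wild type replicate 2 the highest, -0.11, with 34 of 62 negative.

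All 3 knockout libraries lay above all 3 wild type libraries for 3 of the 60 genes and below them for 11, beside 12.3% and 11.2% of all genes tested. The 3 were Kcnj2, Kcna3 and Kcnab3. The 11 were Kcnk1, Kcnk5, Kcna6, Kcnf1, Kcnh3, Kcnv1, Kcnab2, Kcne3, Kcnip1, Kcnj12 and Kcnj15. Of the 60 genes, 3 (Kcnf1, Kcnh3 and Kcnv1) had every knockout library under the filter's cutoff of 0.488 CPM (before scaling by TMM factors), so they entered the test through the wild type, where they are high, and 0 entered through the knockout alone.

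**Figure D2:**
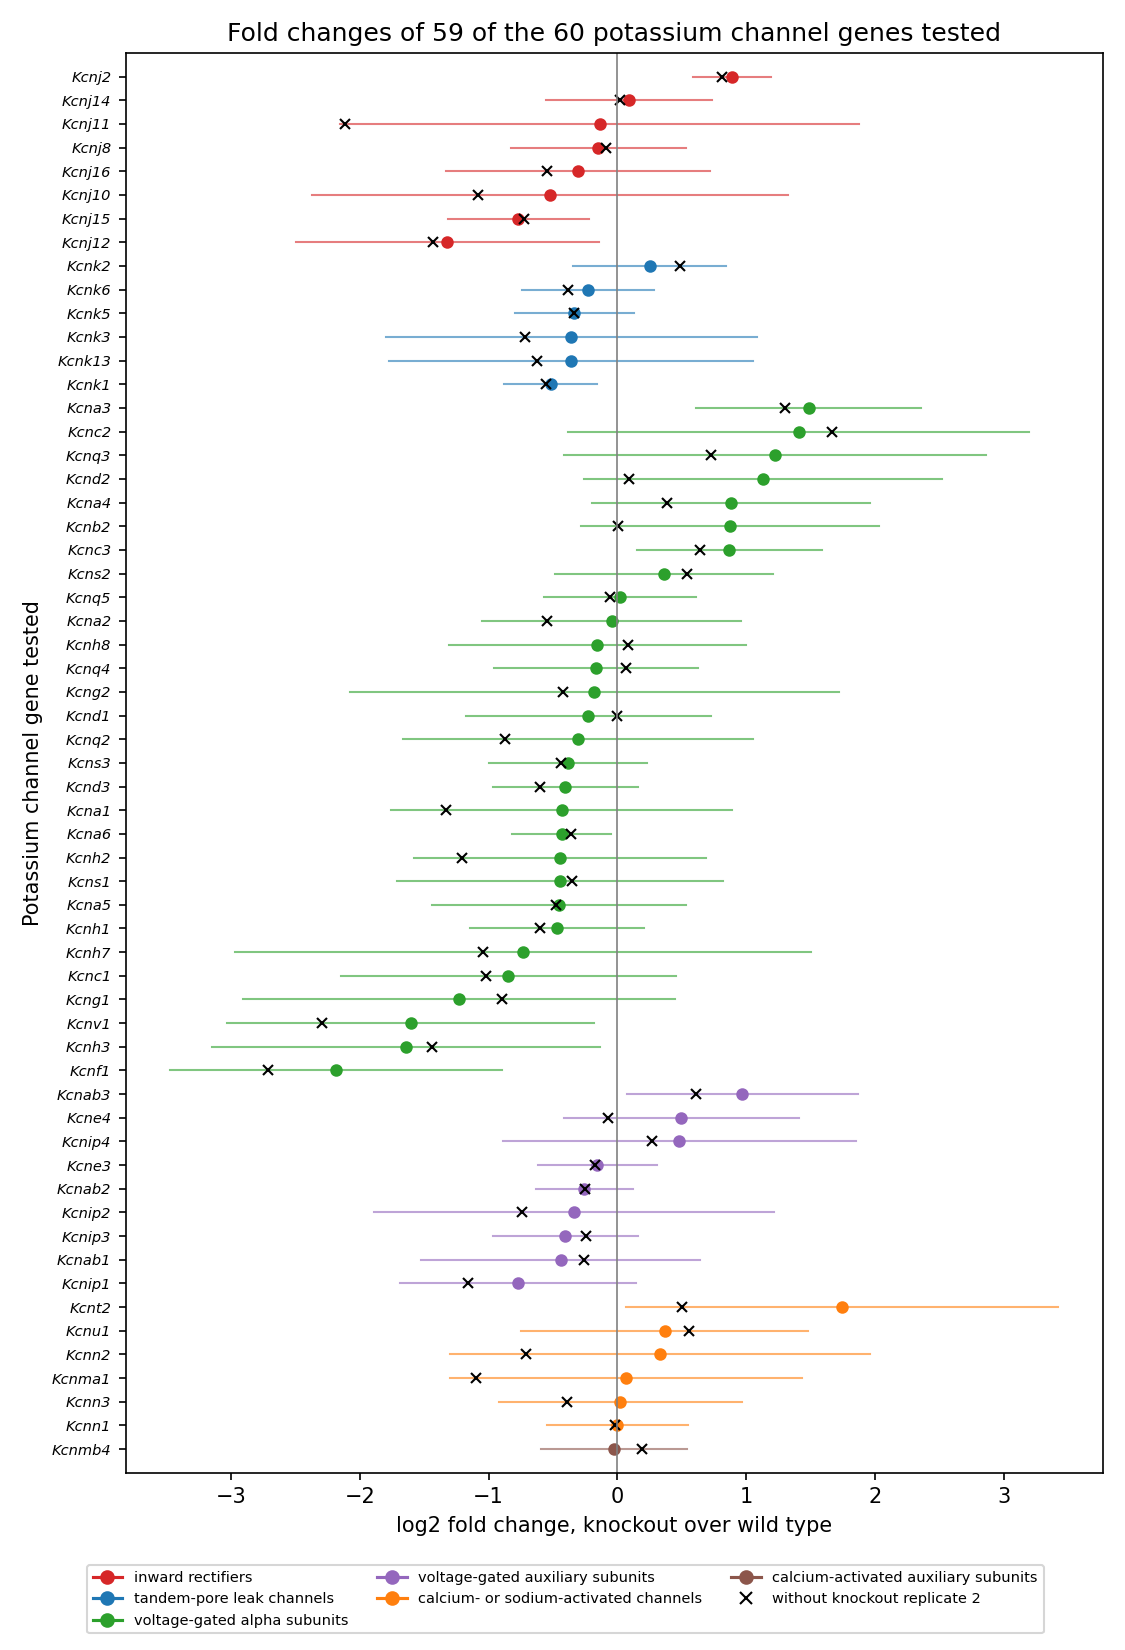
Log2 fold changes, knockout over wild type, of 59 of the 60 potassium channel genes tested, as dots with 95% intervals from the edgeR fit, coloured by class, and as crosses for the fit without knockout replicate 2. Kcnj2 alone passed the threshold over all genes, and most dots lie left of 0.

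Kcnj2 stood at 33.4, 41.9 and 39.3 CPM in the 3 wild type libraries and at 63.1, 76.97 and 72.1 CPM in the 3 knockout libraries. Every knockout library was above every wild type library by a margin wider than the spread within either group. The level was 1.85-fold higher (log2 fold change 0.89, SE 0.13, 95% interval 0.59 to 1.19, adjusted p = 0.0414). Raw counts moved the same way in spite of the lower depth of the knockout, from 939, 934 and 912 to 997, 1017 and 1306. Without knockout replicate 2 the log2 fold change was 0.82 (adjusted p = 0.00602). It lay between 0.80 and 0.97 with any 1 library left out, but passed only without knockout replicate 2: the adjusted p was 0.237, 0.209 and 0.204 without wild type replicate 2, 3 or 4, 0.0668 without knockout replicate 1 and 0.103 without knockout replicate 3.

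Its near relatives did not rise with it. Kcnj2 belongs to a branch of strong rectifiers with Kcnj4, Kcnj12 and Kcnj14, whose subunits can assemble together. Kcnj12 stood at 0.854, 2.29 and 1.25 CPM in the wild type and at 0.506, 0.681 and 0.552 CPM in the knockout, with no overlap (log2 fold change -1.32, adjusted p = 0.325). Kcnj14 overlapped between the groups, with 2.20 ± 0.421 CPM in the wild type and 2.34 ± 0.285 CPM in the knockout (SD, n = 3 each; log2 fold change 0.093, 95% interval -0.55 to 0.74, adjusted p = 0.894). Kcnj4 was not tested and had 11, 9 and 2 wild type counts and 1, 1 and 0 knockout counts. Of the summed level of this branch per kb, Kcnj2 made up 82.8%, 79.4% and 86.1% in the wild type libraries and 92.4%, 91.997% and 92.4% in the knockout libraries. Kcnj16, the neighbour of Kcnj2 on the chromosome, overlapped between the groups (wild type 0.825 ± 0.217 CPM, knockout 0.674 ± 0.209 CPM, SD, n = 3 each; adjusted p = 0.762).

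None of the other inward rectifiers tested passed the threshold. Kcnj15, a rectifier known from kidney, stood at 6.73, 4.66 and 6.67 CPM in the wild type and 3.29, 3.25 and 4.03 CPM in the knockout, without overlap (log2 fold change -0.77, SE 0.24, adjusted p = 0.26). Per kb it was the second Kcnj gene in the wild type, overlapping Kcnj14. Epithelial markers were lower in the same libraries, and their part in the Kcnj15 values was not tested. Kcnj10, a rectifier of glia and kidney, ranged from 0.129 to 0.890 CPM in the wild type and from 0.166 to 0.681 CPM in the knockout (adjusted p = 0.775). Kcnj3, a G protein-gated rectifier too low to test, had 8 counts in each wild type library and 9, 28 and 15 in the knockout. At 0.285, 0.358 and 0.344 CPM against 0.569, 2.12 and 0.829 CPM, its knockout libraries all lay higher, with knockout replicate 2 the highest.

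The ATP-sensitive channels pair Kcnj8 or Kcnj11 with a sulfonylurea receptor encoded by Abcc9 or Abcc8, and in each pair the genes are neighbours. Kcnj8, a gene of pericytes, stood at 1.71, 1.75 and 2.20 CPM in the wild type and 2.02, 1.51 and 1.55 CPM in the knockout (adjusted p = 0.829). Its partner Abcc9 was at 14.1 CPM on average in the wild type and 19.3 CPM in the knockout (adjusted p = 0.494). Kcnj11 was at 0.463, 0.762 and 0.775 CPM in the wild type and at 0.190, 1.66 and 0.110 CPM in the knockout, where replicate 2 was the highest of all 6 libraries and the other knockout libraries the lowest (log2 fold change -0.14, adjusted p = 0.953, and -2.12 without knockout replicate 2, adjusted p = 0.222). Abcc8 was too low to test. Of the 15 inward rectifiers, 8 were tested, 1 rose and 0 fell. The median over these 8 was -0.23, and -0.64 without knockout replicate 2, where the same counts of 1 and 0 passed.

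**Figure D3:**
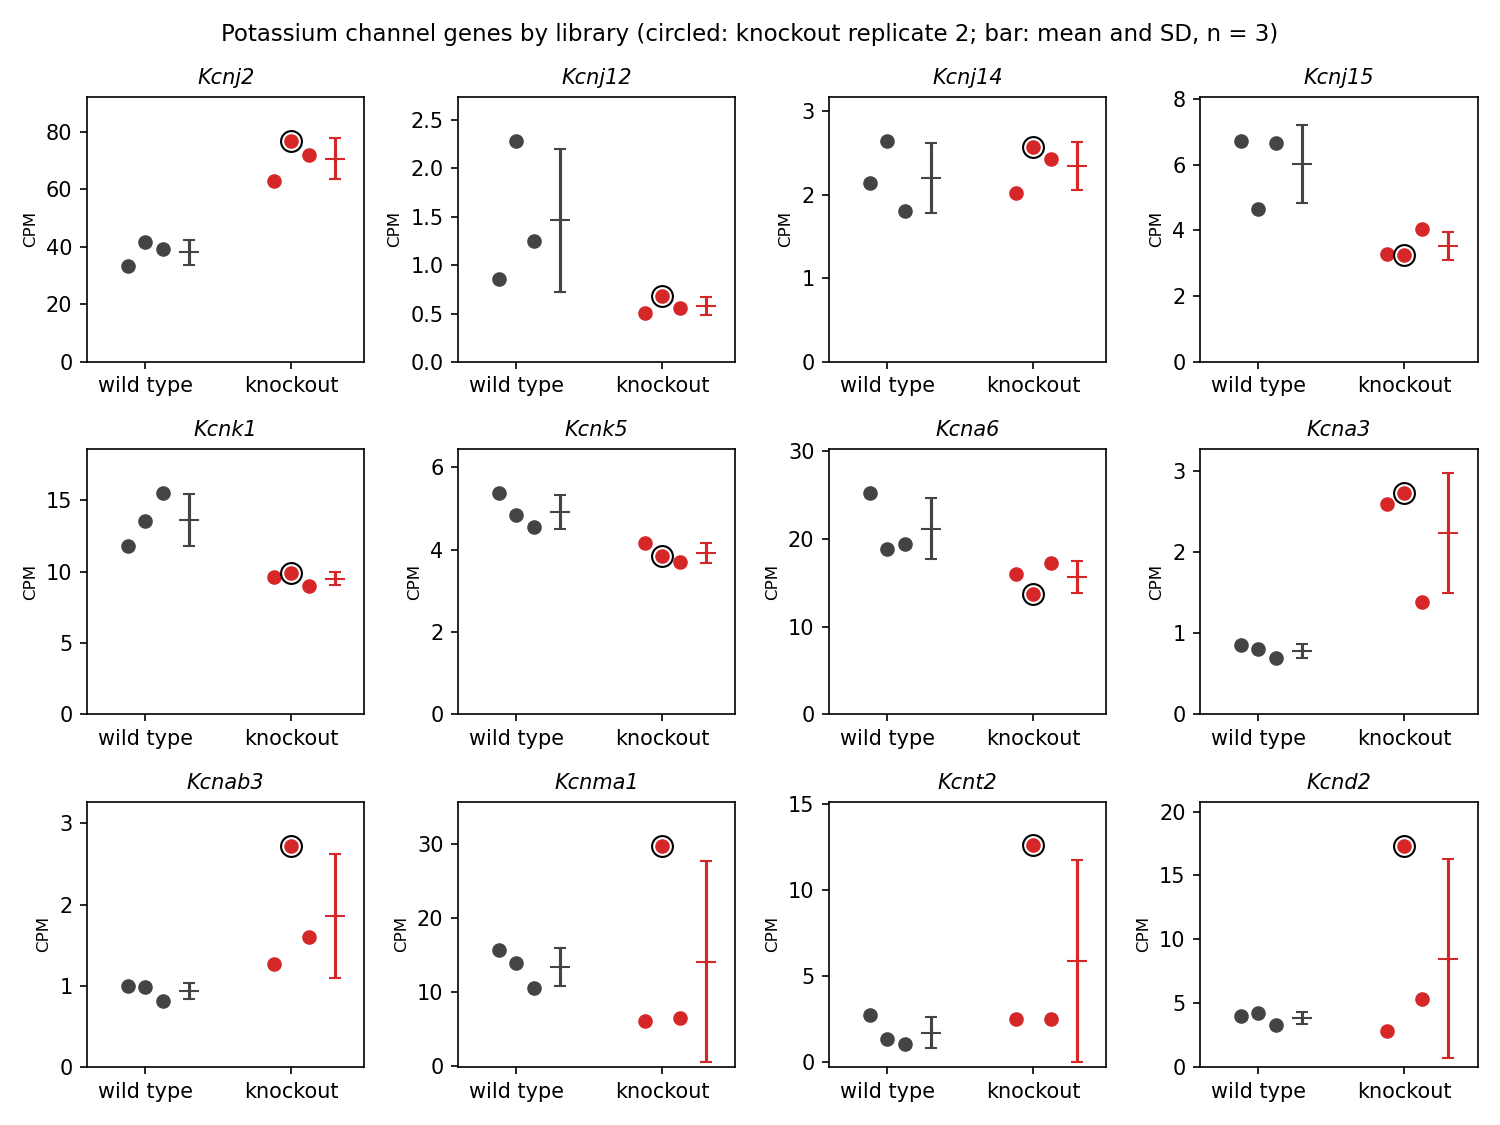
CPM of 12 potassium channel genes in each library, wild type in grey and knockout in red, with the mean and SD of 3 libraries beside the points and knockout replicate 2 circled. The Kcnj2 groups are fully apart, whereas the Kcnma1, Kcnt2 and Kcnd2 values of knockout replicate 2 stand far above those of the other knockout libraries.

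Tandem-pore channels carry the background leak current. Kcnk1 stood at 11.8, 13.6 and 15.5 CPM in the wild type and 9.62, 9.91 and 9.004 CPM in the knockout. All knockout values were lower, by 1.43-fold, but the test over all genes was not passed (log2 fold change -0.52, SE 0.16, adjusted p = 0.253). Kcnk5, an acid-sensitive leak channel, stood at 5.37, 4.84 and 4.56 CPM and then 4.18, 3.86 and 3.70 CPM, also without overlap (log2 fold change -0.33, adjusted p = 0.455). Kcnk2, a channel opened by stretch, had nearly equal wild type values of 9.61, 9.77 and 9.86 CPM. Its knockout values fell on both sides, at 13.9 and 13.7 CPM in replicates 1 and 3 and 7.11 CPM in replicate 2 (log2 fold change 0.25, adjusted p = 0.656, and 0.49 without knockout replicate 2, adjusted p = 0.105). Kcnk6 overlapped (wild type 6.73 ± 0.926 CPM, knockout 5.76 ± 1.15 CPM, SD, n = 3 each; adjusted p = 0.634). Of 14 genes, 6 were tested and 0 passed. Negative log2 fold changes were 5 of the 6, beside 48.5% of all genes tested, and the median was -0.35 (-0.47 without knockout replicate 2).

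Voltage-gated alpha subunits formed the largest class, and 0 of its 30 tested members passed. Kcna6, the most abundant, stood at 25.2, 18.9 and 19.4 CPM in the wild type and 16.0, 13.7 and 17.3 CPM in the knockout, without overlap (log2 fold change -0.43, SE 0.16, adjusted p = 0.323). Its neighbours on the chromosome are Kcna1 and, beyond it, Kcna5. Kcna1 overlapped at 7.62, 5.51 and 3.40 CPM against 2.91, 8.02 and 1.60 CPM (log2 fold change -0.43, adjusted p = 0.733).

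Kcna3, a channel best known from lymphocytes, went the other way, from 0.854, 0.807 and 0.689 CPM to 2.59, 2.72 and 1.38 CPM (log2 fold change 1.48, SE 0.37, adjusted p = 0.191). Its wild type values were close together and the knockout values were all higher, on 16 to 24 counts in the wild type and 25 to 41 in the knockout. Kcnf1, a silent subunit that alters other channels, had 25, 17 and 17 wild type counts and 2, 4 and 2 knockout counts (log2 fold change -2.18, SE 0.56, adjusted p = 0.19, and log2 fold change -2.71 with adjusted p = 0.098 without knockout replicate 2). This was the most negative log2 fold change among the 60 genes. Kcnv1, another silent subunit, had 16, 13 and 15 counts and then 2, 5 and 2 (log2 fold change -1.60, adjusted p = 0.324). Kcnh3, whose exons overlap those of Mcrs1 on the other strand, had 26, 19 and 14 counts and then 1, 2 and 9 (log2 fold change -1.64, adjusted p = 0.333). As given above, Kcnf1, Kcnv1 and Kcnh3 entered the test through the wild type alone. Kcnv1 and Kcnh3 are named after their values were seen. The median over the 30 genes was -0.33, and -0.43 without knockout replicate 2.

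No auxiliary subunit of voltage-gated channels passed the threshold, and those named below lay close to the wild type or split in direction. Kcnab2, a beta subunit of Kcna channels, stood at 10.5, 9.05 and 11.9 CPM in the wild type and 8.79, 8.63 and 8.89 CPM in the knockout, all lower by a narrow margin (log2 fold change -0.26, adjusted p = 0.478). Kcne3 lay from 4.26 to 5.21 CPM in the wild type and from 4.14 to 4.24 CPM in the knockout (adjusted p = 0.724). Kcnip3, a calcium-binding partner of Kcnd channels, overlapped (wild type 8.78 ± 0.330 CPM, knockout 6.62 ± 2.13 CPM, SD, n = 3 each; adjusted p = 0.456).

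At lower levels, Kcnab3 and Kcnip1 went in opposite directions. Kcnab3, another beta subunit, was at 0.997, 0.986 and 0.818 CPM in the wild type and 1.27, 2.72 and 1.60 CPM in the knockout, without overlap (log2 fold change 0.97, adjusted p = 0.333). Kcnip1 was at 1.71, 2.15 and 1.68 CPM and then 0.633, 1.66 and 0.994 CPM, where knockout replicate 2 lay just under the lowest wild type value (log2 fold change -0.77, adjusted p = 0.4, and -1.16 without that library). Kcne4 stood at 5.48, 5.42 and 5.60 CPM in the wild type and at 3.99, 13.0 and 6.46 CPM in the knockout, with a log2 fold change of 0.50 that was -0.074 when knockout replicate 2 was left out. Of 11 genes, 9 were tested and 0 passed, with or without that library, and the median was -0.26 (-0.24 without it).

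Among calcium- or sodium-activated channels, the median changed sign without knockout replicate 2. Kcnma1, the large-conductance channel of smooth muscle and nerve, stood at 15.7, 13.8 and 10.5 CPM in the wild type, at 6.07 and 6.52 CPM in knockout replicates 1 and 3 and at 29.7 CPM in knockout replicate 2. Its log2 fold change was 0.067 (adjusted p = 0.965) with all libraries and -1.10 without knockout replicate 2 (SE 0.20, adjusted p = 0.0245). Kcnt2, a sodium-activated channel, stood at 2.71, 1.34 and 1.03 CPM in the wild type and at 2.47, 12.6 and 2.49 CPM in the knockout (log2 fold change 1.74, adjusted p = 0.341, and 0.50 without knockout replicate 2). Exons of Kcnt2 overlap those of 4930590L20Rik on the other strand. Kcnu1 was low and overlapped, with 0.641 ± 0.0338 CPM in the wild type and 0.822 ± 0.440 CPM in the knockout (SD, n = 3 each; adjusted p = 0.731). Of 8 genes, 6 were tested and 0 passed, with a median of 0.20, against -0.39 over 7 genes without knockout replicate 2, when 1 passed as lower.

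Kcnmb4, the main Kcnmb gene here, did not follow Kcnma1. It stood at 10.7, 9.28 and 9.86 CPM in the wild type and at 11.2, 6.28 and 11.7 CPM in the knockout, lowest in replicate 2 (log2 fold change -0.026, 95% interval -0.59 to 0.54, adjusted p = 0.967, and 0.19 without that library). The other 3 Kcnmb genes were too low to test.

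The voltage-gated genes Kcnd2 and Kcnb2, named after their values were seen, were also far higher in knockout replicate 2 than elsewhere, but their other knockout libraries lay on both sides of the wild type. Kcnd2, a channel of the transient outward current, was at 3.31 to 4.21 CPM in the wild type, 2.78 and 5.36 CPM in knockout replicates 1 and 3 and 17.3 CPM in replicate 2. Kcnb2, a delayed rectifier, was at 4.66 to 5.08 CPM in the wild type, 5.82 and 3.98 CPM in knockout replicates 1 and 3 and 16.95 CPM in replicate 2. Knockout replicate 2 had the highest value of the 6 libraries for 19 of the 60 genes, 31.7%, beside 34.7% of all genes tested. Leaving it out changed the sign of 8 of the 60 log2 fold changes. The sum of skeletal muscle markers, mostly Myh3 and Myh8, was highest in the same library, as given above. The 12 neuronal markers summed to 276 CPM there against 82.0 and 213 CPM in knockout replicates 1 and 3 and 144 to 233 CPM in the wild type. The part of muscle or nerve in these values was not tested.

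The summed level of all 92 genes was similar in the groups, while the share of Kcnj2 in it differed. The sum was 60.3, 58.8 and 57.4 CPM per kb in the wild type and 55.4, 71.4 and 57.5 CPM per kb in the knockout, highest in knockout replicate 2. Kcnj2 made up 10.2%, 13.1% and 12.6% of it in wild type libraries and 20.9%, 19.8% and 23.1% in knockout libraries, which restates its rise. Without Kcnj2 the sum was 54.1, 51.1 and 50.2 CPM per kb in the wild type and 43.8, 57.3 and 44.2 CPM per kb in the knockout. The inward rectifiers other than Kcnj2 summed to 3.92 ± 0.290 CPM per kb in the wild type and 3.13 ± 0.536 in the knockout (SD, n = 3 each).

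**Figure D4:**
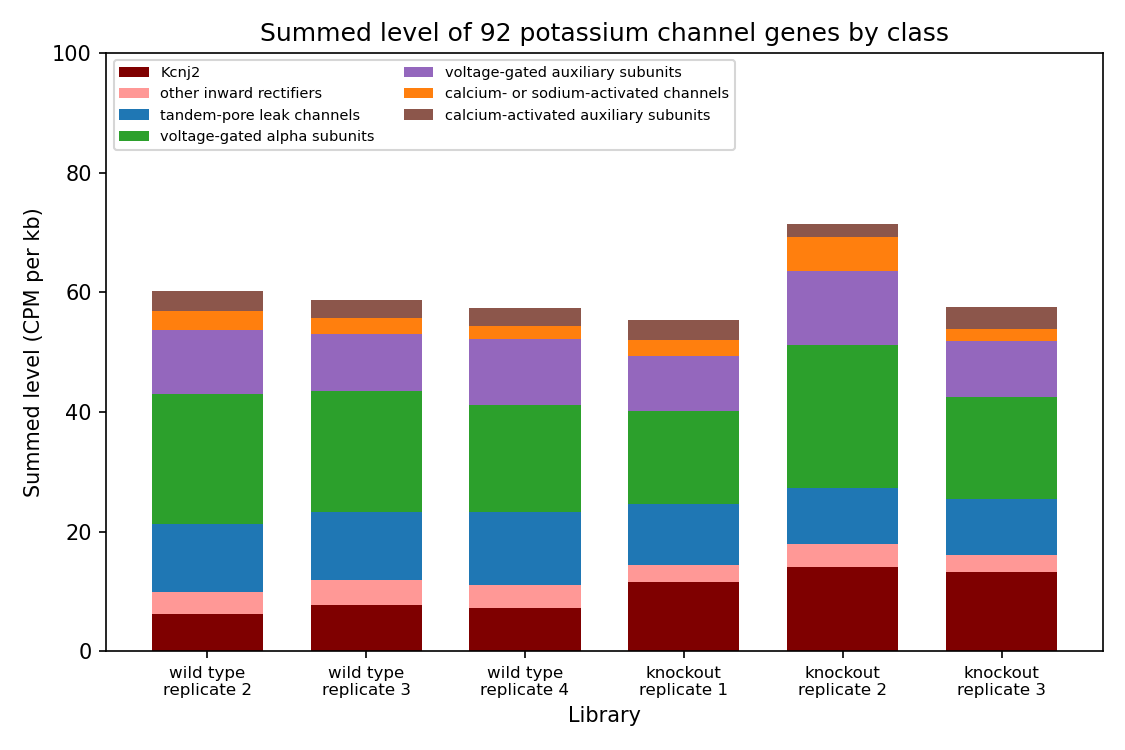
Summed level of the 92 potassium channel genes in CPM per kb of exon length in each library, stacked by class with Kcnj2 drawn apart from the other inward rectifiers. The Kcnj2 segment is taller in all 3 knockout libraries, and the total is highest in knockout replicate 2, at 71.4.

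Other genes of potassium handling and membrane voltage were counted from 4 lists. Of 11 auxiliary subunits outside the symbol rule, such as the Kcnd partners Dpp6 and Dpp10, 7 were tested and 0 passed. The smallest p there was that of Amigo1, a membrane protein that binds channel subunits, with 12.9 ± 0.942 CPM in the wild type and 16.7 ± 3.70 CPM in the knockout (SD, n = 3 each; adjusted p = 0.395). Of 24 genes of the sodium pump and of potassium cotransport, which build up the potassium gradient, 19 were tested and 0 passed. Over these 19 the median was -0.25, beside 0.011 for all genes, and 12 were negative, beside 48.5% of all genes tested. Fxyd1, a regulator of the pump, stood at 5.02, 6.14 and 5.12 CPM in the wild type and at 0.886, 2.04 and 0.884 CPM in the knockout, without overlap (log2 fold change -2.12, SE 0.36, adjusted p = 0.0655). Without knockout replicate 2, 4 of 19 genes of this list passed as lower, beside 1.57% of all genes. These were Fxyd1 (log2 fold change -2.61, adjusted p = 0.00358), Fxyd7 (-1.57, adjusted p = 0.0354) and the pump beta subunits Atp1b1 (-1.01, adjusted p = 0.00739) and Atp1b2 (-1.63, adjusted p = 0.00377), of which the last 3 are named after their values were seen.

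Of 24 other voltage-gated cation channel genes, 20 were tested and 0 passed, with a median of 0.14 that was -0.28 without knockout replicate 2. The sodium channel gene Scn8a had the smallest p, at 10.1, 10.9 and 8.39 CPM in the wild type and 15.9, 31.3 and 10.94 CPM in the knockout (log2 fold change 0.98, adjusted p = 0.323, and 0.44 without knockout replicate 2). BMP signalling has been linked to Kcnj2 function, and all 16 BMP pathway genes were tested and 0 passed, with a median of 0.040. The smallest p was that of the ligand Bmp7, at 36.8, 48.4 and 41.7 CPM in the wild type and at 27.6, 18.996 and 37.5 CPM in the knockout, where replicate 3 overlapped the wild type (log2 fold change -0.59, adjusted p = 0.336). Without knockout replicate 2, 0 genes of the auxiliary, cation channel or BMP lists passed.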

How the data were processed

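Messenger RNA of palatal shelves was made into libraries with a stranded kit and sequenced as paired 25 bp reads, per the labels. Alignment and counting used TopHat2, SAMtools and HTSeq on mm9, per the submitters' processing notes, which give no version. Which annotation and strand setting were used is not stated in the sources used here. Each library's deposited file holds raw counts per gene symbol, and its 5 category lines (such as ambiguous or outside genes) entered neither library sizes nor tests. Pairs outside genes made up 12.3% to 47.5% of a file's total, and not unique ones 18.1% to 30.3%.

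Groups and numbers came from the sample titles. The samples of each group are labelled as biological replicates, and p-values measure the spread between these 6 libraries. Normalisation was by TMM; counts were filtered with filterByExpr and compared with edgeR 4.0.16 in R 4.3.3 (quasi-likelihood, robust, no covariate), with Benjamini-Hochberg adjustment at 0.05 over 14233 genes. The fit was tested on simulated data. SEs are the log2 fold change over the root of F. CPM use the normalised library sizes. Exon lengths of all 92 genes came from GENCODE M21, which is on a later build, and serve as lengths only. Medians and counts over genes are descriptions. Alternatives were other size factors, filters, DESeq2 1.42.0, limma voom 3.58.1, removal of Rn45s and Lars2, each library left out, and the replicate number as a block. Class counts without knockout replicate 2 were added after seeing the data.

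The genes and lists were chosen with earlier results of these data known. Named were Kcnj2, any gene past the threshold, the 12 most abundant per kb in the wild type, the most abundant and the 2 smallest p of each class, all Kcnj genes tested, up to 10 genes of at least 1 CPM whose groups did not overlap, and from each list up to 3 past the threshold or else the smallest p. Markers of 12 cell types were summed. Those of cells without values in the results (Schwann cells, melanoblasts, pericytes and smooth muscle, erythroid cells, chondrocytes and osteoblasts) had 1 gene past the threshold, the osteoblast gene Col1a1 (lower). Their summed CPM ranged in wild type and knockout from 408 to 474 and 327 to 368 for pericytes and smooth muscle, 74.3 to 78.3 and 58.3 to 82.8 for Schwann cells, 2.84 to 4.20 and 3.29 to 10.4 for melanoblasts, 499.8 to 953 and 245 to 1323 for erythroid cells, 369 to 1236 and 189 to 392 for chondrocytes, and 1821 to 3202 and 735 to 1087 for osteoblasts. Msx1 stands in both the BMP and the mesenchyme list. The values of 1 potassium channel gene are not reported here, and it is not drawn, though it is counted in totals.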

Additional observations from a re-analysis of the deposited data

How the results depend on the processing

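The rise of Kcnj2 held in direction and passed under both other size factors, both other filters, DESeq2, limma voom and the removal of Rn45s and Lars2, and with each library left out its log2 fold change ran from 0.80 to 0.97. The count of potassium channel genes past the threshold was 1 in those fits and 0 to 3 with a library left out. Where it was 0, 7 to 13 of them had an unadjusted p below 0.05 by edgeR. The count over all genes was 76. It was 486 with DESeq2 and 0 to 306 with a library left out (0 by edgeR without wild type replicate 2 or 3, where 1102 and 1117 genes had an unadjusted p below 0.05), and the cause was not tested. The groups share replicate numbers 2 and 3 only, and deviations of same-numbered libraries correlated at 0.207 and -0.141, so the numbers were not taken to pair samples. With the replicate block, the contrast rested on replicates 2 and 3 of each group. Wild type replicate 4 and knockout replicate 1 have no same-numbered partner, so that fit is not a second check on all libraries. In it 298 genes passed by edgeR, and Kcnj2 was the 1 potassium channel gene among them (log2 fold change 0.99, adjusted p = 0.00603). Signs reversed for Kcnma1 with limma voom (-0.42) and the replicate block (-0.062), and with the replicate block for Kcnu1 (-0.17) and Kcnj11 (0.19). With a library left out they reversed for Kcnma1 (-1.10 to 0.42), Kcnu1 (-0.15 to 0.57), Kcnmb4 (-0.18 to 0.19), Kcnj10 (-1.09 to 0.049), Kcnj11 (-2.12 to 0.42), Kcnj14 (-0.028 to 0.24) and Kcne4 (-0.074 to 0.81). Kcnf1 had at most 25 counts in a library and Kcna3 at most 41.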
